A study of Rattus norvegicus with 6 samples.

Results

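The genes described here encode the protein components of the cytosolic ribosome and the factors that start and drive protein synthesis, measured in endothelial cells from cirrhotic and control rat livers. They were chosen by name: every probe set with exactly 1 gene symbol beginning with Rpl, Rps, Eif or Eef in the forms used for ribosomal proteins, initiation factors 1 to 6 and elongation factors 1 and 2, leaving out the ribosomal S6 kinases. This gave 99 genes on 113 probe sets, of 10412 genes with such a probe set in all. They fell into 40 ribosomal proteins (28 of the large and 12 of the small subunit), 3 ribosomal-protein-like genes, 38 initiation factors, 7 elongation factors and 11 regulators of these factors. After the dimmest probe sets were left out, 96 genes could be tested, and the large-subunit gene Rpl30, Rpl3l and the methyltransferase gene Eef1akmt4 were too dim. Each gene was read on its brightest tested probe set.

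RNA was compared on 3 arrays of liver endothelial cells from cirrhotic Wistar rats, described as adult males, and 3 arrays of the same cells from control Wistar rats. The cells had been released with collagenase, separated by density and captured on antibody-coated magnetic beads, and were hybridised to the Affymetrix rat 230A array. The sources used here do not say how cirrhosis was induced, what the antibody bound, which sex the controls were or how many rats stood behind an array, so a p-value covers the spread from array to array, which may be technical. Values are linear signals whose trimmed mean was nearly the same on each array, so a transcript is best read against the rest of its own array; how they were scaled is not stated in the sources used here. Differences are cirrhotic minus control on the log2(signal + 16) scale, and a gene was called where limma's moderated test gave a Benjamini-Hochberg adjusted p under 0.05 over all 9519 tested probe sets, as it did for 2421 of them (25.4%).

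A ribosome joins a small subunit, which reads the mRNA, to a large subunit, which links amino acids, and cells make the proteins of both in matched amounts. Initiation factors bring the initiator tRNA, the mRNA cap and the small subunit together, and elongation factors deliver aminoacyl-tRNA and move the ribosome along. The mRNAs of ribosomal proteins and of several elongation factors begin with a terminal oligopyrimidine stretch, an unbroken run of C and T at the transcription start, through which the mTOR pathway controls their translation. Translation as a whole is also set by phosphorylation of the initiation factor eIF2, of the cap-binding protein's inhibitors and of the elongation factor eEF2.

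The 30 bases around the annotated start are given below for 11 of the called members, picked across the classes after their values were seen. They run from 15 bases before the start to 15 from it on, from RefSeq on build GRCr8. Capitals mark the longest unbroken run of C or T in that window. Rpl12 lies at chr3:36661925-36661954 (+), Rpl22 at chr5:168117946-168117975 (+), Rpl4 at chr8:73566462-73566491 (+), Rplp0 at chr12:46718376-46718405 (-), Rps3 at chr1:163195762-163195791 (-) and Rps15 at chr7:10068101-10068130 (-). Eef1b2 lies at chr9:72074076-72074105 (+), Eif3f at chr1:172369047-172369076 (+), Eif5a at chr10:55143207-55143236 (-), Eif2d at chr13:45168162-45168191 (+) and Eef2k at chr1:184824405-184824434 (+).
Rpl12: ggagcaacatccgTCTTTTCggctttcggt
Rpl22: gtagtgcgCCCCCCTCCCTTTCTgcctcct
Rpl4: taagTTCTTCCTTTTCCTgtgggagcagcc
Rplp0: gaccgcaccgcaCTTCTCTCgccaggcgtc
Rps3: TTCCTTTCagcggcgcgcggcagcaagatg
Rps15: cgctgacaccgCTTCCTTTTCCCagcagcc
Eef1b2: tttccggccggtcccggCCCTTTTTCTCCC
Eif3f: tcacgcccttccgttctagCCTCTCTCTTT
Eif5a: ggcgCTagaggcggcggcggcggcggcagc
Eif2d: cggcgtgcgtcagTTCCgggactaggaccg
Eef2k: gCTCCaaccccagccacaacagccccagct

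The ribosomal protein and Eef1b2 windows hold runs of 7 to 15 bases. Not all of these lie at the annotated start. The run of Rps3 lies at the upstream edge of its window and ends before the start, while those of Eef1b2 and Eif3f begin after it, at bases 3 and 5. Among the initiation factors Eif3f has a run of 11 bases, and Eif5a and Eif2d have runs of 2 and 4, as has the regulator Eef2k with 4. A run of at least 8 bases within 20 bases of the start was found in 22 of the 33 ribosomal protein genes with a promoter entry (66.7%) and in 4 of 6 elongation factor genes (66.7%). It was found in 7 of 35 initiation factor genes (20%) and in 1 of 10 regulator genes (10%), against 15.5% of all 27457 genes in the table. A run counted in this way may lie on either side of the start, so these are not counts of terminal oligopyrimidine starts. The motif CCGGAAG was searched on both strands of the 300 bases around the start. It was present in 8 ribosomal protein genes (24.2%), 13 initiation factor genes (37.1%), 4 of 10 regulator genes (40%) and 0 of 6 elongation factor genes. The share was 9.22% of all genes and 11.2% of protein-coding genes. Its reverse form CTTCCGG can overlap the end of a pyrimidine run. The motifs CTTTCC and AAGATGGC, searched in the same way, were present in 45.5% and 12.1% of ribosomal protein genes. For initiation factor genes the shares were 25.7% and 8.57%, and for all genes 26.4% and 3.44%. These matches describe the annotated sequence and were not measured in these cells.

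Most ribosomal protein genes had a higher signal in cirrhotic than in control arrays, by a small and similar amount. Of 39 tested, 27 rose (69.2%) and 0 fell, where 12.7% of all 7148 tested genes rose and 12.7% fell. The median difference of the 39 was 0.34 with a range of -0.26 to 0.77, against a median of 0.00 and quartiles of -0.30 and 0.31 over all tested genes. The difference was positive for 37 of 39, and the cirrhotic signals all lay above the control signals for 34 (87.2%), as they did for 22.0% of all genes. No ribosomal protein had an unadjusted limma p under 0.05 in the lower direction, and 34 had one in the higher direction. The rise was over 1.5-fold for 5 genes and over 2-fold for 0. Large-subunit genes rose in 21 of 27 cases with a median difference of 0.35, and small-subunit genes in 6 of 12 with a median of 0.33. In RNA from many cells, fewer cells of a type cannot be told apart from less RNA per cell.

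**Figure D1:**
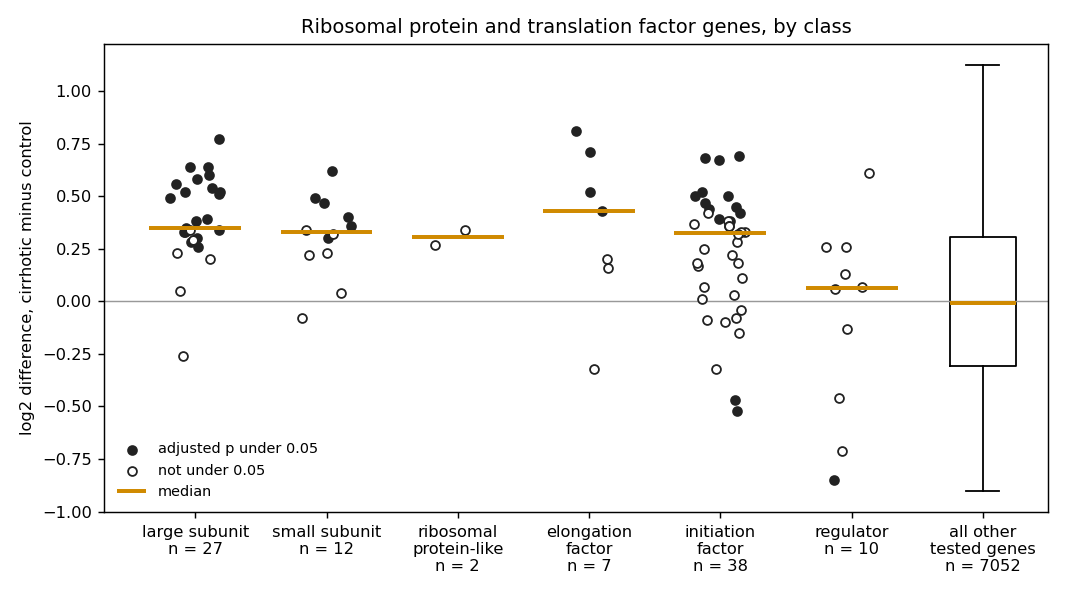
Log2 difference, cirrhotic minus control, of each tested gene by class, with filled points at an adjusted p under 0.05, a line at each median, and at the right the other 7052 tested genes as a box (quartiles -0.31 and 0.30, whiskers at the 5th and 95th percentiles, -0.90 and 1.12). Ribosomal protein genes of both subunits lie mostly above 0 in a narrow band, while initiation factors and regulators spread to both sides.

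Rpl12, a protein at the base of the stalk where elongation factors bind, had signals of 7357, 6688 and 6369.7 on the cirrhotic arrays, against 3967, 3541 and 4479 on the control arrays. The 3 cirrhotic signals lay close together, well above the highest control. It had the largest difference among the ribosomal proteins, 0.77 (SE 0.11, adjusted p = 0.00303), a 1.71-fold rise. Rplp0, the stalk protein widely used as a reference gene in PCR, had signals of 6486, 5896 and 5957 in cirrhotic cells, against 3879.8, 4151 and 4233 in control cells. The groups were apart and Rplp0 rose by 0.58 (SE 0.09, adjusted p = 0.00354).

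Rpl22, a large-subunit RNA-binding protein, averaged 7026 ± 544 in cirrhotic and 4491 ± 277 in control arrays (SD, n = 3 each), a rise of 0.64 (SE 0.10, limma adjusted p = 0.00325). Rpl4, which lines part of the tunnel through which the new chain leaves, averaged 5399 ± 729 in cirrhotic and 3433 ± 77.9 in control arrays, with cirrhotic array 1 highest at 6219. It rose by 0.64 as well (SE 0.11, adjusted p = 0.00633). Rpl24, which reaches across to the small subunit, had cirrhotic signals of 4250.0, 4367 and 3962 against control signals of 2984, 2757 and 2552, and rose by 0.60 (SE 0.10, adjusted p = 0.00565).

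Among small-subunit proteins, Rps3, which sits where mRNA enters, had signals of 7485, 7542 and 5709 in cirrhotic cells, against 4477, 4263 and 4625 in control cells. Cirrhotic array 3 was the lowest of its group and still lay above every control. Rps3 rose by 0.62 (SE 0.12, adjusted p = 0.00973). Rps15, in the head of the subunit, rose by 0.49 (SE 0.10, adjusted p = 0.0108), and Rps9, beside the mRNA entry, by 0.47 (SE 0.09, adjusted p = 0.0079). Rps3a, near the mRNA exit, rose by 0.40 (SE 0.08, adjusted p = 0.00835), and Rps16 by 0.36 (SE 0.08, adjusted p = 0.0156).

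Rps6, the substrate of S6 kinase in the mTOR pathway, averaged 9242 ± 576 in cirrhotic and 7514 ± 350 in control arrays (SD, n = 3 each) and rose by 0.30 (SE 0.08, limma adjusted p = 0.0323). Its call was lost without cirrhotic array 1 or without any 1 control array, at adjusted p from 0.0703 to 0.109, and that of Rps16 without the same arrays, at 0.0506 to 0.058. The other called ribosomal proteins had rises between 0.26 for Rpl23 and 0.56 for Rpl35.

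**Figure D2:**
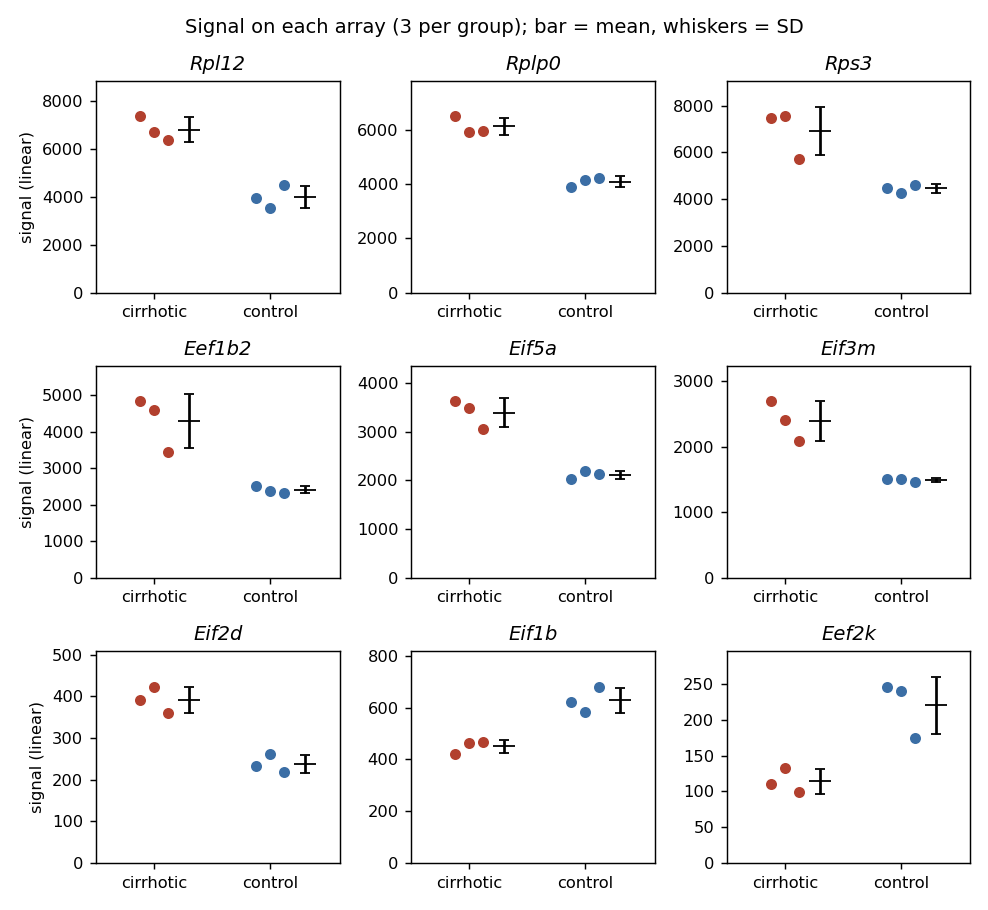
Linear signal of 9 genes on each array, cirrhotic left of control, with mean and SD (n = 3 each) beside the points. The cirrhotic points lie above the control points without overlap for Rpl12, Rplp0, Rps3, Eef1b2, Eif5a, Eif3m and Eif2d, and below them for Eif1b and Eef2k.

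The 12 ribosomal proteins that did not pass covered a range of differences. Rpl34, Rpl35a, Rps24 and Rps28 had differences of 0.29 to 0.34 with adjusted p between 0.0522 and 0.0639. Rpl27a, Rps15a and Rps23 had differences of 0.20 to 0.23 and groups that did not overlap. Rpl13a, often used as a reference gene, had signals of 5063, 7045 and 5171 in cirrhotic cells, against 5664, 4029 and 5020.0 in control cells. Its groups overlapped, and the difference was 0.23 (SE 0.17, adjusted p = 0.352). The probe set is marked as sharing sequence with other transcripts. Rps29 (0.04) and Rpl37a (0.05) had the smallest differences, and that of Rpl37a lay between -0.07 and 0.25 when 1 array was left out.

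The 2 negative values belonged to Rpl39 (-0.26, SE 0.17, adjusted p = 0.303) and to Rps4y2, a small-subunit gene of the Rps4 family (-0.08, SE 0.21, adjusted p = 0.818), whose sign turned when 1 array was left out (-0.24 to 0.10). These 2 genes were the dimmest tested ribosomal proteins, with mean signals of 383 in cirrhotic and 467 in control arrays for Rpl39, and of 240.0 in cirrhotic and 255 in control arrays for Rps4y2. The other 37 all had a mean log2(signal + 16) above 11, a signal of about 2032, and a median difference of 0.35. Genes outside the list that passed the same bound, 466 in all, had a median of -0.11, and 10.5% of them rose and 29.2% fell. They were not matched in brightness, with a median signal of 3063 against 5758 for the 37 ribosomal proteins.

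Within these 37 the difference was smaller on brighter probe sets, with a Spearman correlation between mean brightness and difference of -0.63 and a Pearson correlation of -0.60 across genes, which share the same 6 arrays and are not independent. The 12 dimmest had a median difference of 0.52 and 10 calls, the 13 in the middle 0.34 and 9 calls, and the 12 brightest 0.29 and 8 calls. Over all 39 tested genes the Spearman correlation was -0.39 and the Pearson correlation 0.33, so the sign of the second rested on the dim pair Rpl39 and Rps4y2. The link between brightness of a probe set and its difference was not tested further.

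**Figure D3:**
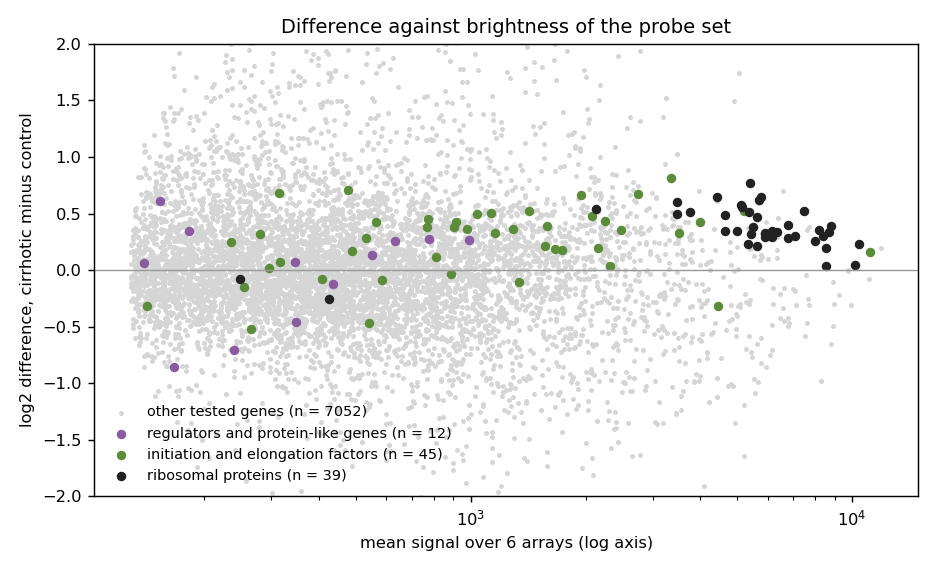
Log2 difference, cirrhotic minus control, against the mean signal over 6 arrays on a log axis, 1 point per tested gene; 108 other genes lie beyond 2 log2 units and outside the plot. Ribosomal proteins form a cluster at the bright end that sits above 0, and their differences become smaller towards the brightest probe sets.

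The ribosomal-protein-like genes are paralogues with roles apart from the standard ribosome or poorly known ones. Rps27l, a paralogue of Rps27 induced by p53 in human cells, had signals of 190.2, 199.9 and 229.9 in cirrhotic arrays, against 163.0, 153 and 160.3 in control arrays. The groups did not overlap, but the difference of 0.34 (SE 0.14, adjusted p = 0.116) did not pass. Rpl7l1 had a difference of 0.27 on its brightest probe set and -0.02 on its other one.

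Of the 7 elongation factors 4 rose and 0 fell, against 12.7% of all genes each way, with a median difference of 0.43. No elongation factor had an unadjusted limma p under 0.05 in the lower direction. Eef1b2, the subunit that exchanges GDP for GTP on eEF1A, had signals of 4836, 4615 and 3449 in cirrhotic cells, against 2525, 2391 and 2328 in control cells. Cirrhotic array 3 was the lowest of its group and still above all controls, and Eef1b2 rose by 0.81 (SE 0.14, adjusted p = 0.00595). Its call held whichever array was left out.

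Eef1g, the scaffold subunit of the same exchange complex, averaged 6157 ± 825 in cirrhotic and 4283 ± 547 in control arrays (SD, n = 3 each) and rose by 0.52 (SE 0.14, limma adjusted p = 0.0275). Eef1d, another exchange subunit, had a difference of 0.20 (adjusted p = 0.393). Eef1e1, named as an elongation factor but known as a member of the multi-tRNA synthetase complex, rose by 0.71 (SE 0.19, adjusted p = 0.0303). Eef2, which moves the ribosome by a codon, had signals of 4895, 4741 and 4094 in cirrhotic cells, against 3807, 3024 and 3394 in control cells. Its groups did not overlap and it rose by 0.43 (SE 0.12, adjusted p = 0.0379).

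Each of these 3 calls was lost when any 1 of several arrays was left out. Eef1g lost its call without cirrhotic array 1 or 2 or without any control array (adjusted p 0.0528 to 0.0962), Eef2 without cirrhotic 1 or 2 or control 2 or 3 (0.0828 to 0.125), and Eef1e1 without cirrhotic 1 or 2 or control 1 or 3 (0.0611 to 0.104).

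Eef1a1, the main carrier of aminoacyl-tRNA, had signals of 12310.1, 11204 and 11872 on its brightest probe set in cirrhotic cells, against 10401, 10772 and 10412 in control cells. The groups did not overlap, but the difference of 0.16 (SE 0.07, adjusted p = 0.118) did not pass. Its other probe set, which shares sequence with other transcripts, read 7782, 7622 and 8253 in cirrhotic and 8090.2, 8667 and 8927 in control arrays, a difference of -0.12 (SE 0.08, adjusted p = 0.297). Eef1a2, the isoform of muscle and neurons, was dim, with a difference of -0.32 (SE 0.20, adjusted p = 0.281).

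Of the 38 initiation factors 12 rose (31.6%), 2 fell (5.26%) and 24 did not pass, against 12.7% of all genes rising and 12.7% falling, and their median was 0.32. Most of the rises came from 2 complexes. All 11 tested subunits of eIF3, the scaffold that holds the small subunit and recruits mRNA, had a positive difference (0.18 to 0.67, median 0.44), and 6 rose. Eif3m had signals of 2688, 2399.6 and 2083 in cirrhotic cells, against 1512, 1502 and 1460.3 in control cells. The groups were far apart compared with their spread and Eif3m rose by 0.67 (SE 0.13, adjusted p = 0.00787).

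Eif3l, with cirrhotic signals of 1692, 1703 and 1621 against control signals of 1112, 1076 and 1313, rose by 0.52 (SE 0.12, limma adjusted p = 0.0196), and Eif3i by 0.50 (SE 0.14, adjusted p = 0.0353). Eif3h (0.47), Eif3j (0.45) and Eif3f (0.44) rose too and are named, as are the subunits that follow, after their values were seen. Eif3b, Eif3a, Eif3k, Eif3c and Eif3d had differences of 0.18 to 0.38 and did not pass. Of the 6 calls, that of Eif3m held whichever array was left out. Eif3l lost its call without cirrhotic array 1 or control 1 or 2 (adjusted p 0.0626 to 0.0731). Eif3i, Eif3h and Eif3j lost theirs without cirrhotic 1 or 2 or any control array (0.0598 to 0.12), and Eif3f without cirrhotic 1 or 2 or control 1 or 3 (0.059 to 0.0989).

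In eIF2, which carries the initiator tRNA, the alpha subunit Eif2s1, whose phosphorylation slows translation, had signals of 1013, 1100.5 and 1040.3 in cirrhotic cells, against 717, 836 and 794 in control cells. The groups did not overlap and Eif2s1 rose by 0.42 (SE 0.12, adjusted p = 0.0402), a call lost without any 1 of the 6 arrays (0.0582 to 0.139). Eif2s2 rose by 0.39, and Eif2s3 had a difference of 0.42 with an adjusted p of 0.111. The call of Eif2s2 was lost without cirrhotic array 1 or 2 or any control array (0.0873 to 0.11). The 5 subunits of eIF2B, the exchange factor that recharges eIF2, gave 0 calls by limma and 0 unadjusted p under 0.05, with differences of -0.15 to 0.25. Eif2b1 had a difference of 0.07 (SE 0.13).

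Eif5a, the hypusine-bearing factor that helps the ribosome past difficult stretches and in termination, had signals of 3622, 3488 and 3063 in cirrhotic cells, against 2022, 2188 and 2123 in control cells. The groups did not overlap and Eif5a rose by 0.68 (SE 0.11, limma adjusted p = 0.00428). Eif2d, which can deliver tRNA to the ribosome without eIF2, had signals of 389.9, 423 and 359.7 in cirrhotic cells, against 233, 261 and 218 in control cells, and rose by 0.69 (SE 0.13, adjusted p = 0.00896). Both calls held whichever array was left out. Eif6, which keeps the subunits from joining too early, had a difference of 0.18 (SE 0.12, adjusted p = 0.294).

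The eIF4 family, which binds the cap and unwinds the mRNA, had a median difference of 0.03 over 11 genes, with 1 rising and 1 falling (9.09% each), near the 12.7% of all genes each way. The riser, Eif4b, a helper of the helicase, had a difference of 0.50 (adjusted p = 0.0432) on the brighter probe set and 0.65 (adjusted p = 0.0182) on the dimmer one. On the brighter probe set the call was lost without cirrhotic array 1 or 2 or any control array (0.0686 to 0.145). The helicase genes were opposite in sign without passing: the difference was 0.33 for Eif4a1 (SE 0.11, adjusted p = 0.0616) and -0.32 for its paralogue Eif4a2 (SE 0.13, adjusted p = 0.114).

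Eif4e, the cap-binding protein, had signals of 1336, 1531 and 1504 in cirrhotic cells, against 1052, 1125 and 1213 in control cells, without overlap, and a difference of 0.36 (SE 0.12, limma adjusted p = 0.0654). Its dimmer probe set gave -0.13 (SE 0.23). The scaffold Eif4g1 had a difference of -0.04 (SE 0.23), of no stable sign, and Eif4g2, which supports cap-independent initiation, one of 0.36 (SE 0.14, adjusted p = 0.101).

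The 2 initiation factors that fell were both paralogues. Eif4e3, a weak cap-binding relative of Eif4e, had signals of 189, 239 and 219.9 in cirrhotic cells, against 299, 352 and 296 in control cells, and fell by 0.52 (SE 0.15, adjusted p = 0.0359). Eif1b, a relative of the start-codon selection factor, had signals of 420.1, 465 and 466 in cirrhotic cells, against 621, 586 and 682 in control cells, and fell by 0.47 (SE 0.13, adjusted p = 0.0303). The groups did not overlap for either gene. The call of Eif4e3 was lost without cirrhotic array 1 or 3 or any control array (0.0549 to 0.122), and that of Eif1b without cirrhotic 1 or control 1 or 3 (0.0855 to 0.11). Eif1ax, which works with it in scanning, rose by 0.38 (adjusted p = 0.0479), a call lost without any 1 of the 6 arrays (0.0677 to 0.139).

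**Figure D4:**
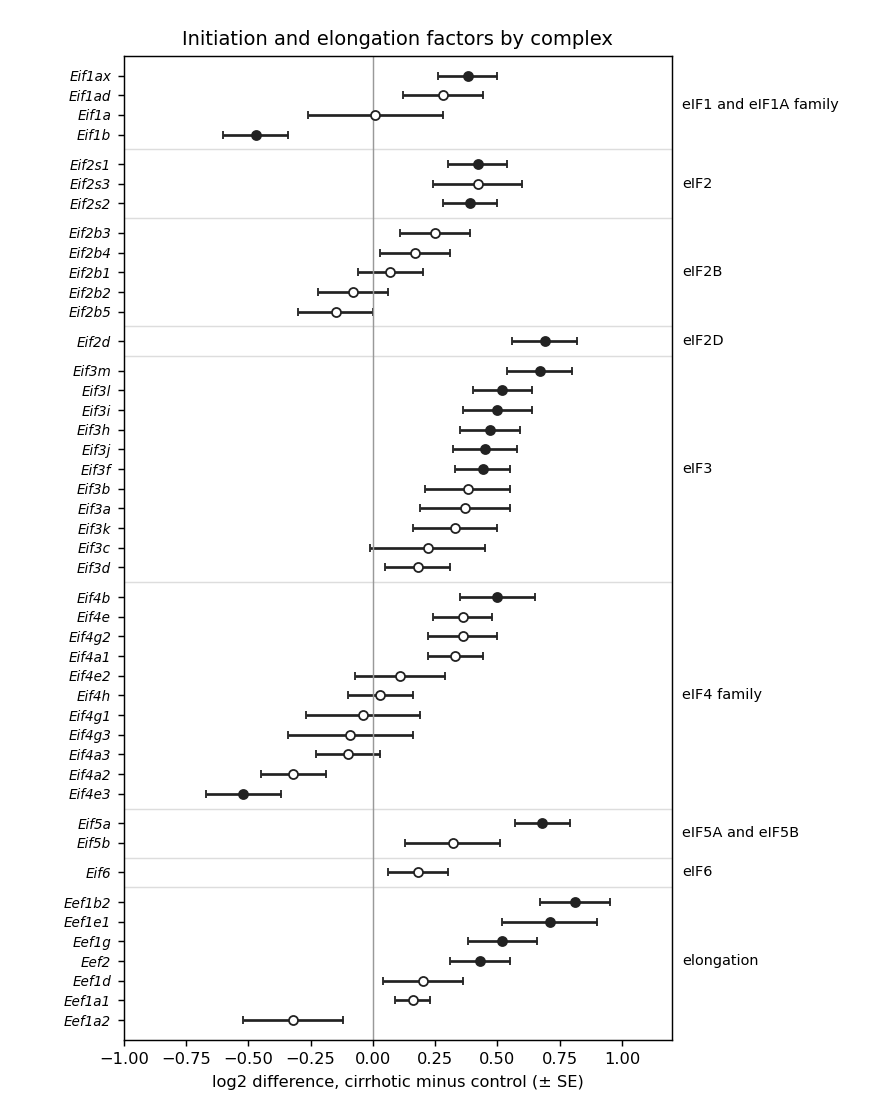
Log2 difference, cirrhotic minus control, with SE, of the 45 initiation and elongation factors by complex, with filled points at an adjusted p under 0.05. The 11 eIF3 subunits all lie above 0, the 5 eIF2B subunits lie around 0, and the 11 members of the eIF4 family run from -0.52 to 0.50.

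Of the 10 tested regulators, 0 rose and 1 fell by limma, against 12.7% of all genes each way, with a median of 0.07. An unadjusted limma p under 0.05 was found for 1 regulator in the higher direction and for 3 in the lower. Eef2k, the kinase that inactivates eEF2, had signals of 111, 133 and 98.7 in cirrhotic cells, against 247, 240.3 and 174 in control cells, so that all cirrhotic values lay below all control values. It fell by 0.85 (SE 0.19, adjusted p = 0.0156), a call lost without cirrhotic array 1 or control 1 or 2 (0.0518 to 0.0627). Its cirrhotic mean of 114 lay below the signal of about 127 at the filter for dim probe sets. Eef2k thus passed that filter through its control arrays, with a mean of 220. Its other tested probe set read 178.9, 154 and 67.3 in cirrhotic and 166, 160.1 and 152 in control arrays, which overlapped, with a difference of -0.32 (SE 0.31, adjusted p = 0.478).

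The kinases that phosphorylate eIF2 did not pass in either direction. Eif2ak2, the kinase activated by double-stranded RNA, had signals of 123, 243 and 171 in cirrhotic cells, against 228, 368 and 300 in control cells, with overlap and a difference of -0.71 (SE 0.26, adjusted p = 0.0808). Eif2ak1, the haem-regulated kinase, had a difference of 0.13, Eif2ak3, the kinase of endoplasmic reticulum stress, one of 0.07, and Eif2ak4, the kinase of amino acid shortage, one of 0.06, each with an SE of at least 0.13. Of the inhibitors of the cap-binding protein, Eif4ebp1 and Eif4ebp2 each had a difference of 0.26 (SE 0.15 and 0.13) and did not pass. Eif4ebp3 had the opposite sign, with a difference of -0.46 (SE 0.16, limma adjusted p = 0.0742) that did not pass either, although its groups did not overlap.

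Set against each other, ribosomal proteins and the 45 initiation and elongation factors had almost the same median difference, 0.34 and 0.33, but not the same spread. Rises were called in 69.2% of ribosomal proteins and 35.6% of factors, against 12.7% of all genes, and falls in 0 and 2 genes. The size of this gap in calls varied with the settings. Without a variance trend 16 of 39 ribosomal proteins and 12 of 45 factors rose, and with no filter 16 of 40 and 14 of 45. With centring on the median of all probe sets 16 of 39 and 5 of 45 rose. The SD over genes was 0.20 for ribosomal proteins and 0.31 for factors, and the groups did not overlap, with cirrhotic higher, in 87.2% and 55.6%, against 22.0% of all genes. They did not overlap with cirrhotic lower in 3 factors, against 23.3% of all genes. Brightness differed between the classes, since 12 of the 45 factors passed the bound of 11 that 37 ribosomal proteins passed. Of these 12 factors 6 rose, with a median of 0.39, while of the 33 dimmer ones 10 rose and 2 fell, with a median of 0.28.

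The order of the classes was not the same on every array. Relative to the control mean, the median over ribosomal proteins was 0.46, 0.36 and 0.28 on cirrhotic arrays 1, 2 and 3, against 0.01, -0.03 and 0.03 on the control arrays. For the factors it was 0.25, 0.43 and 0.22 on the cirrhotic arrays, against -0.03, -0.01 and 0.05 on the control arrays. Ribosomal proteins minus factors thus came to 0.21, -0.08 and 0.07 on the cirrhotic arrays, and to 0.03, -0.02 and -0.01 on the control arrays. The difference of 0.02 between the class medians was smaller than this spread and turned to -0.03 without cirrhotic array 1 and to -0.04 without control array 3. The regulators stayed between 0.02 and 0.08 on the cirrhotic arrays and between -0.02 and 0.05 on the control arrays.

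**Figure D5:**
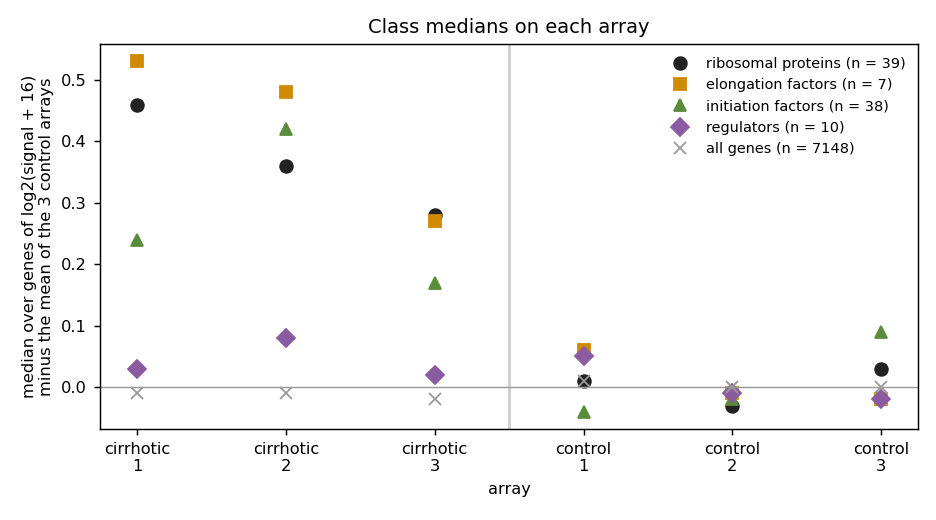
Median over the genes of each class of log2(signal + 16) minus the mean of the 3 control arrays, on each array. Ribosomal proteins and elongation factors lie at 0.27 to 0.53 on the cirrhotic arrays and within 0.06 of 0 on the control arrays, while the median of all genes lies within 0.02 of 0 on each array.

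The number of calls depended on single arrays more than the medians did. Ribosomal protein rises numbered 16, 19 and 30 without cirrhotic arrays 1, 2 and 3, and 16, 15 and 14 without control arrays 1, 2 and 3, against 27 with all arrays. Factor calls numbered 4, 7 and 17 without the cirrhotic arrays and 5, 7 and 5 without the control arrays, against 18 with all arrays. Calls over all tested probe sets moved in the same fits too. They numbered 1366, 2255 and 2472 without cirrhotic arrays 1, 2 and 3, and 1622, 1849 and 1341 without control arrays 1, 2 and 3, against 2421. The calls of 14 ribosomal proteins held whichever array was left out: Rpl4, Rpl6, Rpl7a, Rpl12, Rpl14, Rpl18, Rpl22, Rpl24, Rpl35, Rplp0, Rps3, Rps3a, Rps9 and Rps15. Those of 4 factors did so: Eef1b2, Eif5a, Eif3m and Eif2d. The other 13 ribosomal proteins lost their call in at least 1 of the 6 fits at adjusted p from 0.0506 to 0.144, and the other 14 factors at 0.0528 to 0.145. Where the arrays were instead centred on the median of all probe sets, dim ones included, 16 ribosomal proteins and 7 factors were called, with medians of 0.27 and 0.25. The calls that held under that centring were those of the 14 ribosomal proteins just listed, of Rpl21 and Rpl23a, and of Eef1b2, Eef1e1, Eif5a, Eif3m, Eif2d, Eif1b and Eif4e3, while Rps6, Rps16, Eef2, Eif2s1 and the other eIF3 subunits did not pass.

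Measured as shares of all signal, ribosomal proteins made up 3.44%, 3.31% and 3.12% on the cirrhotic arrays, against 2.58%, 2.48% and 2.58% on the control arrays. The factors made up 1.05%, 1.09% and 0.941% on the cirrhotic arrays, against 0.817%, 0.809% and 0.870% on the control arrays. In both classes every cirrhotic array lay above every control array. Cirrhotic array 3 held the lowest of the 3 cirrhotic signals for 26 of 39 ribosomal proteins (66.7%) and 29 of 45 factors (64.4%), against 39.8% of all genes.

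The cell preparations differed in other ways that moved with the groups. None of 5 sinusoidal and 6 general endothelial markers measured lay within the bacterial control signals on any array. No marker of the other cell types did so on all 6 arrays. Some did on single arrays, such as Cdh1 and Cldn3 on control array 3 and Clec4f on cirrhotic array 3. The purity of the preparations was not tested by this. The summed endothelial signals were lower in cirrhotic arrays, at 10610 to 12240 against 22900 to 27510 in control arrays for the sinusoidal markers and 12120 to 13110 against 22550 to 23050 for the general ones, with 5 of 5 and 5 of 6 falling. The other general marker, Vwf, had a positive difference of 0.79 (SE 0.26, limma adjusted p = 0.0573) that did not pass. Markers of other cells summed to 11320 to 20030 in cirrhotic and 1760.0 to 2967 in control arrays for 8 stellate cell and fibroblast genes (5 of 7 tested rose), and to 4743 to 10670 in cirrhotic and 658 to 1371 in control arrays for 7 bile duct genes (5 of 6 rose). Macrophage genes summed to 4812 to 10220 in cirrhotic and 3074 to 5432 in control arrays (2 of 6 rose, 1 fell), and hepatocyte genes to 28530 to 43790 in cirrhotic and 23590 to 30020.0 in control arrays (3 of 8 rose). T and NK cell genes summed to 1991 to 4258 in cirrhotic and 2055 to 2939 in control arrays. Of these, Cd3e, Cd3g, Cd2 and Cd4 rose (4 of 7), while Prf1 (-0.91), Cd8a (-0.61) and Nkg7 (-0.18) had negative differences that did not pass. B and plasma cell genes summed to 720.0 to 1357 in cirrhotic and 406 to 609 in control arrays (2 of 2 rose). Of all genes, 12.7% rose and 12.7% fell.

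On cirrhotic array 3 the cirrhotic signal was lowest for all 7 bile duct, all 6 macrophage and 7 of 8 lymphocyte (T and NK cell) genes, as for most ribosomal proteins, and highest for all 8 hepatocyte genes. The part of these cell types in the rise of ribosomal protein and factor genes was not tested. Without cirrhotic array 3 the median difference was 0.40 for ribosomal proteins and 0.37 for factors.

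Genes around the ribosome were read from lists written with earlier results of these data known. All 7 measured genes of other ribosomal or terminal-oligopyrimidine mRNAs rose, with a median of 0.61, among them the small-subunit protein Rpsa by 0.59 (SE 0.09, limma adjusted p = 0.00375), the RNA-binding protein Hnrnpa1 by 0.86 (SE 0.14) and the intermediate filament gene Vim by 2.17 (SE 0.21). Vim is also abundant in stellate cells and fibroblasts. Of 33 genes of ribosome biogenesis, 12 rose (36.4%) and 2 fell (6.06%), against 12.7% of all genes each way, with a median of 0.36. Tsr1, needed to finish the small subunit, had signals of 554, 610.3 and 456 in cirrhotic cells, against 211, 196.5 and 165 in control cells, and rose by 1.42 (SE 0.16, adjusted p = 0.00101).

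Nhp2, which guides rRNA modification, rose by 1.23 (SE 0.15, limma adjusted p = 0.00147), and the transcription factor gene Myc by 1.36 (SE 0.19, adjusted p = 0.00222). A list of 20 tested genes held cytosolic aminoacyl-tRNA synthetases and Aimp1 and Aimp2, which belong to the multi-tRNA synthetase complex but are no synthetases. Of the 20, 4 rose (20%) and 0 fell, against 12.7% of all genes each way, with a median of 0.32. Aimp1 was among the 4, with a rise of 0.60 (limma adjusted p = 0.0458). Tars1, which charges threonine tRNA, rose by 0.82 (SE 0.14), a call that held whichever array was left out. Farsa, which charges phenylalanine tRNA, rose by 0.54 and lost its call without cirrhotic array 1 or any control array (0.0685 to 0.126). Sars1, which charges serine tRNA, rose by 0.49 and lost its call without cirrhotic 1 or 2 or any control array (0.0813 to 0.138). No gene of this list had an unadjusted limma p under 0.05 in the lower direction, and 10 had one in the higher. Of 6 genes of termination and recycling, 2 rose (33.3%), the recycling factor genes Abce1 by 0.62 (SE 0.14) and Denr by 0.60 (SE 0.16). The call of Abce1 was lost without cirrhotic array 1 or control 3 (0.0595 and 0.0572), and that of Denr without cirrhotic 1 or 3 or control 1 or 2 (0.0576 to 0.0927).

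Among upstream regulators, 0 of 20 genes of the mTOR and S6 kinase pathway rose and 1 fell (5%), against 12.7% of all genes each way. By limma, 1 of them had an unadjusted p under 0.05 in the higher direction and 2 in the lower. The kinase gene Mtor fell by 0.50 (SE 0.13, adjusted p = 0.0312). Targets of the integrated stress response, which follows phosphorylation of eIF2, had a median of -0.15 over 13 genes, with 1 rising (7.69%) and 3 falling (23.1%). Atf4, its main transcription factor, had signals of 5766, 6353 and 4882 in cirrhotic cells, against 7874, 7535 and 8432 in control cells, and fell by 0.49 (SE 0.11, adjusted p = 0.0159). Phgdh, of serine synthesis, rose by 1.36 (SE 0.25) while Chac1, which degrades glutathione, fell by 1.03 (SE 0.21). The control mean of Phgdh, 98.6, lay below the signal of about 127 at the filter for dim probe sets. Phgdh passed that filter through its cirrhotic arrays, with a mean of 284. The call of Mtor was lost without cirrhotic array 1 or 3 or any control array (0.06 to 0.112), and that of Atf4 without control array 3 (0.0709).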

How the data were processed

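Each deposited value is the intensity of a probe set on an array, on a linear scale, and the software that summarised it is not given in the sources used here. After trimming 2% at either end the array means lay near 400, and the scaling was left as the authors had it. Of the 40 tested ribosomal protein probe sets, 31 lay among the brightest 2% on every array and thus outside that mean. Groups and array numbers came from the titles, and the control array without a number was called control 1.

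Values were taken as log2(signal + 16), and 57 control probe sets and the 40% with the lowest mean were left out, which left 9519 of 15866. The groups were fitted in limma 3.58.1 under R 4.3.3 (lmFit, eBayes with a variance trend), two-sided, adjusted by Benjamini-Hochberg over all tested probe sets, with a threshold of 0.05. The test was checked on simulated data. A gene was read on its brightest tested probe set. Symbols came from the platform annotation. The GRCr8 gene table held 97 of the 99 gene identifiers and changed 0 of the symbols.

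The members and lists were chosen with earlier results of these data known. Named were up to 5 called genes per class with the largest rise and up to 5 with the largest fall, up to 3 called genes per list with the smallest p, and 27 genes fixed by name, of which 24 were tested and Eif5a2, Rpl22l1 and Rps27 were not analysed here for want of a probe set with 1 symbol. Class medians and counts carry no test. Promoter sequences are those of the first start listed per gene in the RefSeq table. Alternatives covered scaling, pseudocount, filter, variance model, array weights, shared-sequence probe sets, choice of probe set, a replicate block and leaving out each array.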

Additional observations from a re-analysis of the deposited data

How the results depend on the processing

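The median of ribosomal proteins stayed between 0.27 and 0.41 and that of factors between 0.22 and 0.41 under every alternative run, and 0 ribosomal proteins fell under any. Their calls numbered 14 to 30 when 1 array was left out and moved to 16 with no filter on dim probe sets, 16 without a variance trend and 16 with centring on the median of all probe sets, an alternative chosen after seeing the data. Quantile normalization gave 30 and array weights 33. Factor calls numbered 4 to 17 when 1 array was left out, with 4 to 16 higher and 0 to 2 lower, and 7 with centring on all probe sets (5 higher and 2 lower). They numbered 15 with no filter (14 higher and 1 lower) and 14 without a variance trend (12 higher and 2 lower). Lower factor calls came to 1 with a filter at 60%. With centring on all probe sets the median was 0.27 for ribosomal proteins. The factor median lay between 0.22 and 0.41 when 1 array was left out, its lowest without cirrhotic array 2. The difference between the class medians came to -0.01 with a filter at 60% and 0.12 with array weights, and lay between -0.04 and 0.11 when 1 array was left out. Calls over all probe sets numbered 2421, 3772 with array weights and 1341 to 2472 when 1 array was left out. Centring on all probe sets gave 925 higher and 1480 lower, against 1167 and 1254. The causes of these moves were not tested.

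Only arrays 2 and 3 share title numbers. The deviations of same-numbered arrays from their group means correlated at -0.00926 and -0.157, against -0.216 to 0.216 for arrays with unlike numbers. With only 2 such pairs, these correlations cannot decide whether the numbers pair the samples. A replicate block on these 4 arrays gave 908 calls in all, 2 ribosomal proteins, 1 factor (1 higher, 0 lower) and a class difference of -0.03.

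Of the 50 tested genes that were not called, 11 turned sign when 1 array was left out: Rpl37a, Rps4y2, Eif1a, Eif2b2, Eif4e2, Eif4g1, Eif4g3, Eif4h, Eif4enif1, Eif2ak3 and Eif2ak4. Of the uncalled genes named by rule, the sign turned for Eif2ak1 on its probe set with the smallest p (-0.20), Eif2ak3 without cirrhotic array 2 (-0.03) and Eif2ak4 without cirrhotic array 2 (0.00) or control array 2 (-0.11), and leaving out 1 control array took Eif2ak4 up to 0.23. It turned for Eif2b1 under the replicate block (-0.03), and to -0.01 for Eif2ak3, Eif2ak4 and Eif2b1 with centring on all probe sets. Eif4g1 came to 0.00 with array weights, 0.07 without control 1, 0.10 without cirrhotic 3 or control 3, -0.28 without control 2 and 0.13 on its other probe set. Signal over background limits dim genes such as Eef2k, and 3 arrays per group limit all of them.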

Other observations

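Genes of the mitochondrial ribosome and its factors, which make the proteins of the respiratory chain encoded in mitochondrial DNA, also rose more often than they fell. Of 72 tested, 21 rose (29.2%) and 1 fell (1.39%), with a median difference of 0.34, against 12.7% and 12.7% of all tested genes. Mrpl55 rose by 1.15 (SE 0.13, limma adjusted p = 0.000995), Mrpl32 by 0.98 (SE 0.13, adjusted p = 0.00185) and Mrpl58, a peptidyl-tRNA hydrolase within that ribosome, by 0.82 (SE 0.14, adjusted p = 0.00514). The mitochondrial and cytosolic ribosomal protein genes thus had the same median of 0.34, on probe sets of different brightness and in lists of different size, and the difference between them was not tested.

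Probe sets assigned to several symbols, at least 1 of them a ribosomal protein or translation factor, were left out because they name no single gene. All 38 were bright enough to be tested, and 23 rose and 1 fell, against 12.3% and 13.2% of all tested probe sets, with differences between -0.46 and 0.97 and a median of 0.38, against 0.34 for the ribosomal proteins with a probe set of their own.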
